A study of Mus musculus with 6 samples.

Results

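The acetylcholine receptor of skeletal muscle and the proteins that gather it under the nerve ending were examined in cultured mouse muscle stem cells (MuSCs). The set comprised 10 genes picked by symbol, of 18943 genes in the table, and each of the 10 had a row. MuSCs had been purified by FACS from wild-type C57BL/6 mice 8 weeks old and kept in culture for 5 days. The groups held 2 libraries with DMSO, the solvent control, 2 with endothelin-3 (ET-3) at 100 nM and 2 with neurotensin (NT) at 100 nM, with doses as the labels give them. The methods of the paper give other, higher doses for cultures with these ligands, and which was used for these libraries could not be settled here. Both ligands are peptides that signal through G protein-coupled receptors, and the question was how gene activity differed between MuSCs kept with a ligand and MuSCs kept with DMSO.

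The muscle receptor is a channel built from a pair of alpha subunits with a beta, a delta and either a gamma or an epsilon subunit. The gamma subunit belongs to the embryonic receptor and the epsilon subunit replaces it in mature, innervated muscle. Clustering starts when agrin binds LRP4, which activates the receptor kinase MuSK from outside while DOK7 does so from inside, and rapsyn then holds the receptors together. Cultured muscle cells make most of these proteins without any nerve, as they stop dividing and fuse into myotubes.

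Each value was taken to be a read count per gene, scaled by 1 factor per library and rounded. That was inferred from the values, least clearly for the first DMSO library. The counting errors and chi-square values below rest on it. Values summed to between 4214458 and 4600575 per library. The counting error of a single value was between 2.02% and 7.21% for the 9 members with readable levels. The libraries within the ET-3 pair and within the NT pair differed by no more than the sampling noise of their reads, with a chi-square per gene of 0.860 for ET-3 and 0.927 for NT against 1.49 for the DMSO pair. Values are therefore given library by library. For Chrng, Chrnd, Chrna1, Lrp4, Musk and Agrn, p-values are also given with the mean of each treated pair standing as 1 sample. There the lone samples are assumed to vary like DMSO. For the other genes, each library counts as a sample in the p-values printed. The paper's legend for its RNA-seq speaks of biological samples. No source says whether the libraries of a group came from separate animals or cultures. The p-values therefore measure the spread between these libraries, which may be technical. MuSC markers were present in all groups but did not move together. Pax7 had values of 857 and 1070 under DMSO and between 1599 and 1754 with a ligand, short of a fold of 2, whereas Cdh15, the M-cadherin gene, was called lower with either ligand (1547 and 1746 under DMSO, between 436 and 496 with a ligand). Calcr, a marker of resting MuSCs, lay between 0 and 3 in all 6 libraries. In bulk RNA, fewer cells of a type and less RNA per cell cannot be told apart.

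Promoter sequences of 3 genes are shown because these genes behaved differently, the first having the lowest ratio of treated to DMSO values among the members, the next a small difference and the last higher values with the ligands. They are the 250 bases before the RefSeq start, 5′ to 3′ on the gene's strand, with E-boxes of the form CANNTG in capitals, the letters that myogenic factors such as MyoD and myogenin recognise.
Chrng, chr1:87205561-87205810, plus strand: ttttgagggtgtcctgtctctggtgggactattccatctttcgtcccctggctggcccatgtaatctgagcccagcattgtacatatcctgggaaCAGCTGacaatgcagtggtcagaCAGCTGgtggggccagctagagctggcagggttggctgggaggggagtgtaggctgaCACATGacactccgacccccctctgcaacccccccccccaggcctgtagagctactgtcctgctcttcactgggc
Chrna1, chr2:73580339-73580588, minus strand: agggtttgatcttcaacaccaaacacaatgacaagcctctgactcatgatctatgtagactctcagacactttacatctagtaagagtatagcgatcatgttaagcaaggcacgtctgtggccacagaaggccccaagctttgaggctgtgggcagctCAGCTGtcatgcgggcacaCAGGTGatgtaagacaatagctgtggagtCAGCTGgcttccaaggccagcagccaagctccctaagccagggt
Agrn, chr4:156197489-156197738, minus strand: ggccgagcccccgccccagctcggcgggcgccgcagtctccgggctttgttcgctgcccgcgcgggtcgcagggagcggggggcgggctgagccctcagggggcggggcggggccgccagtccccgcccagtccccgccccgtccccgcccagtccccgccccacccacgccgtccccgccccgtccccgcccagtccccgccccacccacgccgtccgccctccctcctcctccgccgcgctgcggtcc
The build is GRCm38.p6. The Chrng window holds 3 E-boxes, 155, 132 and 75 bases before the start, and 2 of them read CAGCTG. It lies inside the gene span that GENCODE annotates, with 1 exonic base. The Chrna1 window also holds 3, at 92, 73 and 44 bases, again with 2 that read CAGCTG. The Agrn window holds 0 (the window of another RefSeq start of Agrn holds 1), and 83.6% of its bases are G or C. Of 32851 mouse promoter windows of this length, 66.22% held at least 1 CANNTG on either strand (the letters read as CANNTG on both), 12.21% held at least 3, 13% held CAGCTG and 1.26% held at least 2 of it. Promoter windows were at hand for 7 of the 10 members. Musk and Chrnb1 held 3 E-boxes each, of which 1 and 0 read CAGCTG. Dok7 and Chrne held 1 each, and the 1 of Chrne read CAGCTG. The window of another RefSeq start of Dok7 held 0. The Chrne window alone among the 7 genes held CCGGAA, the core letters of the N-box known from synaptic genes, which 12.03% of all windows held on either strand. A match of letters is a description and shows no binding.

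The embryonic gamma subunit gene Chrng was much lower with either ligand. Chrng lies at chr1:87204657-87212694 (GRCm38, plus strand). Its values were 1524 and 1637 in the DMSO libraries, 229 and 241 in the ET-3 libraries and 212 and 224 in the NT libraries. Every treated library was far below both DMSO libraries, and the ET-3 values lay just above the NT values, a gap that did not pass the test (limma adjusted p = 0.363). Chrng was 6.70-fold lower with ET-3 (log2 fold change -2.74 ± 0.06 SE, limma adjusted p = 1.49e-09) and 7.22-fold lower with NT (-2.85 ± 0.06 SE, limma adjusted p = 1.29e-09). Fold changes here are on the log2(value + 1) scale. With the treated pairs averaged, the limma adjusted p was 0.0221 for ET-3 and 0.0244 for NT.

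The delta subunit gene Chrnd lies next to Chrng on the same strand, at chr1:87190607-87200070, with 4586 bases and no annotated protein-coding gene between them. Its values were 1439 and 1525 under DMSO, 623 and 646 under ET-3 and 587 and 598 under NT. The DMSO libraries stood apart from the treated libraries, but by less than for Chrng. Chrnd was 2.33-fold lower with ET-3 (log2 fold change -1.22 ± 0.05 SE, limma adjusted p = 1.97e-08) and 2.50-fold lower with NT (-1.32 ± 0.05 SE, limma adjusted p = 1.28e-08). With the pairs averaged, the limma adjusted p was 0.0250 and 0.0264.

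The beta subunit gene Chrnb1, at chr11:69784036-69795943 (minus strand), had values of 882 and 904 under DMSO, 674 and 651 under ET-3 and 596 and 632 under NT. The groups did not overlap, and the differences stayed under a fold of 2. Its log2 fold change came to -0.43 with ET-3 (SE 0.05, limma adjusted p = 3.37e-05) and -0.54 under NT (limma adjusted p = 7.06e-06).

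The alpha subunit gene Chrna1, at chr2:73563215-73580338 (minus strand), encodes the subunit that carries most of the acetylcholine binding site. Its values were 2083 and 2305 under DMSO, 2070 and 1957 under ET-3 and 1722 and 1641 under NT. One ET-3 library lay next to the lower DMSO library, whereas both NT libraries lay below all others. The log2 fold change with ET-3 was -0.12 (95% interval -0.25 to 0.0033), which did not pass the test (limma adjusted p = 0.0815). With NT it was -0.38 (95% interval -0.51 to -0.26, limma adjusted p = 2.05e-04), but the limma adjusted p was 0.0987 with the pairs averaged. Chrna1 thus kept most of its level where Chrng did not.

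The epsilon subunit gene Chrne, at chr11:70614883-70619216 (minus strand), had values of 4 and 0 under DMSO, 0 and 1 under ET-3 and 0 and 0 under NT. The largest of these came from about 4.07 reads, and a value of 0 allows up to 3 reads. Chrne was therefore at the limit of detection in all 3 groups, was left out of the test by the minimum mean of 5, and no fold is given. The lower Chrng was not accompanied by a detectable level of Chrne at this depth.

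**Figure D1:**
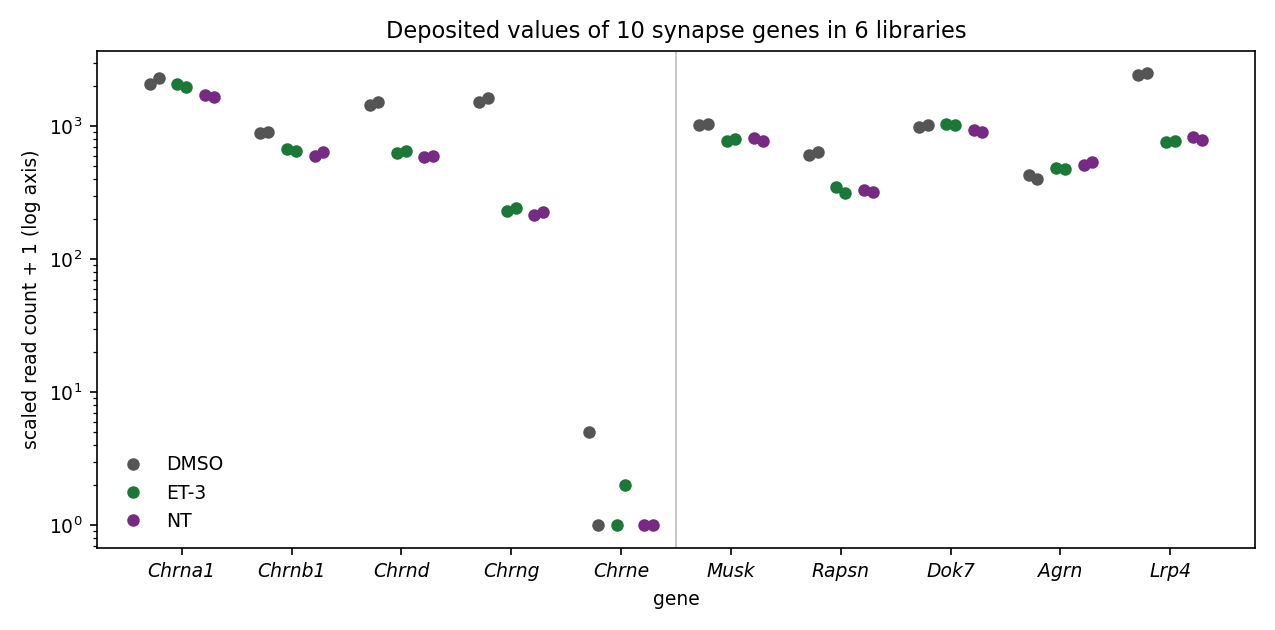
Scaled read count plus 1 (log axis) of the 10 genes in the 6 libraries, 1 point per library, coloured by group, with subunit genes left of the grey line and clustering genes right of it. Chrng drops from 1524 and 1637 under DMSO to between 212 and 241 with a ligand, Lrp4 from 2413 and 2489 to between 759 and 822, and Chrne stays between 0 and 4.

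Levels of different subunits were compared per kilobase of each gene's principal transcript. In the DMSO libraries, Chrng held 28.5% and 28.7% of the summed level of the 5 subunit genes, Chrnd 25.5% and 25.4%, Chrna1 24.7% and 25.6% and Chrnb1 21.2% and 20.4%. The 4 detected subunits were thus present at similar levels with DMSO. In the treated libraries, Chrng held between 7.63% and 8.46%, Chrnd between 19.7% and 21.5%, Chrnb1 between 28.6% and 30.8% and Chrna1 between 39.3% and 43.7%. Relative to Chrna1 per kilobase, Chrng went from 115% and 112% with DMSO to between 17.5% and 21.5% with a ligand. These shares are a ratio within a library and do not depend on the scaling between libraries. They depend on the length used: over all annotated exons, Chrng held 22.5% and 22.6% with DMSO and between 5.60% and 6.26% with a ligand, and Chrna1 then led in DMSO with 29.2% and 30.2%.

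**Figure D2:**
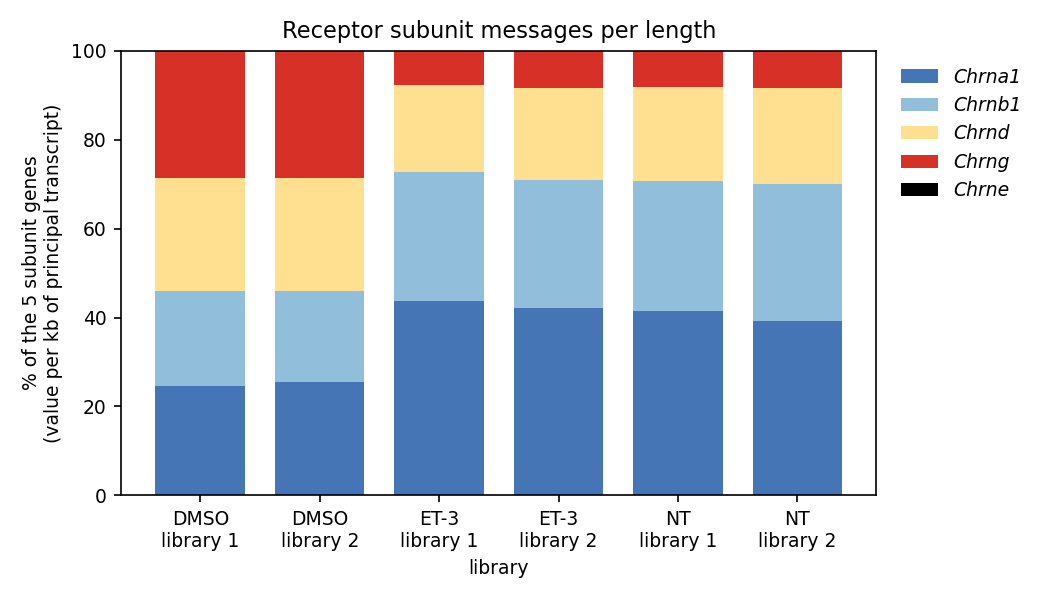
Share in percent of each receptor subunit gene in the summed level per kilobase of the 5 subunit genes, 1 stacked bar per library. The Chrng segment shrinks from 28.5% and 28.7% in the DMSO libraries to at most 8.46% in the treated libraries, while the Chrna1 segment widens to between 39.3% and 43.7%.

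The clustering genes ranged from much lower values of Lrp4 to slightly higher values of Agrn under the ligands. Lrp4, the agrin receptor, lies at chr2:91457511-91513779 (plus strand) and had values of 2413 and 2489 under DMSO, 759 and 776 under ET-3 and 822 and 781 under NT. Each treated library was below both DMSO libraries, and the ET-3 and NT values were close to each other. Lrp4 was 3.19-fold lower with ET-3 (log2 fold change -1.67 ± 0.05 SE, limma adjusted p = 2.53e-09) and 3.06-fold lower with NT (-1.61 ± 0.05 SE, limma adjusted p = 3.70e-09). With the pairs averaged, the limma adjusted p was 0.0221 and 0.0244.

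Rapsn encodes rapsyn, the scaffold that binds the receptor in the cytoplasm, and lies 411781 bases from Lrp4 at chr2:91035620-91045729 (plus strand), with 11 annotated protein-coding genes between them. Its values were 602 and 639 under DMSO, 348 and 311 under ET-3 and 330 and 317 under NT. The treated levels were 0.53 of the DMSO level with ET-3 and 0.52 with NT, and the ET-3 and NT ranges overlapped. Its log2 fold change came to -0.91 with ET-3 (95% interval -1.06 to -0.76, limma adjusted p = 1.47e-06) and -0.94 under NT (95% interval -1.09 to -0.79, limma adjusted p = 1.33e-06), just short of a fold of 2. Rapsn shares 4 exonic bases with the antisense gene Gm13778. In no gene of at least 500 exonic bases did reads exceed 1 per base. Where the values were recomputed as if each base could give at most 1 read, a choice made after the data were seen, Rapsn passed a fold of 2, with -1.06 for both ligands. The log2 fold change of Chrng then came to -3.01 with ET-3 and -3.13 with NT, and that of Chrnd to -1.47 and -1.55. For Chrna1 with ET-3 it came to -0.20, which then passed the adjusted p (limma adjusted p = 0.00602). The levels and shares per kilobase were not recomputed in this way.

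Musk, the receptor kinase at chr4:58285960-58374303 (plus strand), had values of 1013 and 1034 under DMSO, 768 and 803 under ET-3 and 814 and 769 under NT. Treated and DMSO libraries did not overlap, and the treated levels were 0.77 of the DMSO level with either ligand. Its log2 fold change came to -0.38 with ET-3 (limma adjusted p = 6.87e-05) and -0.37 under NT (limma adjusted p = 8.78e-05), and with the pairs averaged the limma adjusted p was 0.0394 and 0.0431.

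Dok7, the adaptor that activates MuSK from inside the cell, lies at chr5:35056766-35087839 (plus strand) and had values of 991 and 1017 under DMSO, 1041 and 1016 under ET-3 and 926 and 902 under NT. The ET-3 libraries overlapped the DMSO libraries, and the NT libraries lay slightly below. The log2 fold change with ET-3 was 0.03 (95% interval -0.06 to 0.13, limma adjusted p = 0.507), and it was 0.12 with limma adjusted p = 0.0197 when libraries were scaled to equal totals. With NT it was -0.14 (95% interval -0.23 to -0.04, limma adjusted p = 0.0201), and it was -0.02 with limma adjusted p = 0.650 under that scaling. Left out in turn, the second DMSO library and either NT library also ended the NT result (limma adjusted p = 0.0673, 0.0539 and 0.120).

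Agrn encodes agrin, the ligand of the pathway, which motor neurons release and muscle cells make as well. It lies at chr4:156165290-156197488 (minus strand) and was the member with higher values under the ligands, 430 and 396 under DMSO, 479 and 474 under ET-3 and 512 and 539 under NT. The groups did not overlap. Its log2 fold change came to 0.21 with ET-3 (SE 0.06, limma adjusted p = 0.0105) and 0.35 under NT (SE 0.06, limma adjusted p = 5.00e-04), and neither passed with the pairs averaged (limma adjusted p = 0.177 and 0.0930). The ET-3 result also did not pass without the second DMSO library, the first ET-3 library or the second ET-3 library (limma adjusted p = 0.0633, 0.0694 and 0.0544). Reads cannot tell the neural from the muscle splice forms of agrin in a table of 1 value per gene. Among markers of other cell types, the summed value of the 5 endothelial genes with a row moved the same way, from 62 and 64 under DMSO to between 98 and 128 with a ligand, mainly through Tek, which went from 2 and 1 to between 42 and 70. Vwf of the same list was called lower with either ligand, at 38 and 52 under DMSO and between 13 and 26 with a ligand. Pecam1 and Cdh5 had low values in the 6 libraries, between 3 and 15 and between 0 and 5. Of the 4 endothelial genes tested, 2 were called higher and 1 lower with ET-3, beside 6.62% and 14.9% of all genes. With NT, 3 of them were called higher and 1 lower, beside 7.30% and 13.2% of all genes. Their part in the Agrn values was not tested.

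Of the 9 members tested, 3 were called lower with ET-3 and 3 with NT (Chrnd, Chrng and Lrp4 each time), and 0 were called higher. That is 33.3% of the tested members. To be called, a gene had to reach a fold of 2 and a limma adjusted p no higher than 0.05. Over all 13921 genes tested, 14.9% were called lower and 6.62% higher with ET-3, and 13.2% lower and 7.30% higher with NT. By the adjusted p alone, 6 members were lower and 1 higher with ET-3 against 33.2% and 30.6% of all genes, and 8 were lower and 1 higher with NT against 32.5% and 29.7%. The median log2 fold change over the tested members was -0.43 under ET-3 and -0.54 under NT, against a median of -0.01 over all tested genes in both comparisons. Both comparisons share the DMSO libraries.

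**Figure D3:**
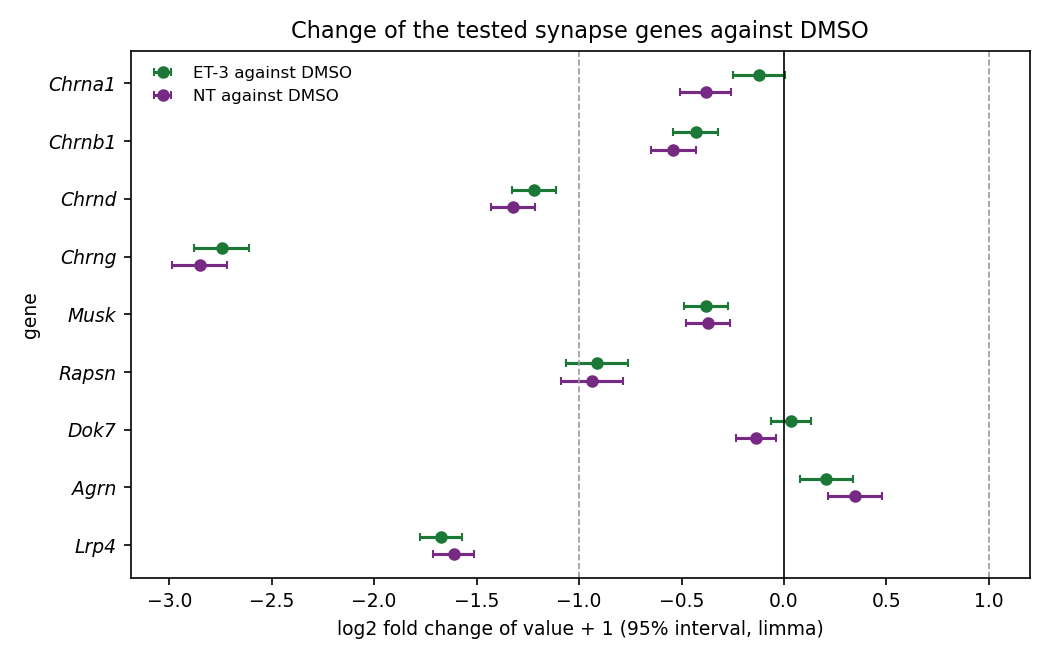
Log2 fold change of value + 1 against DMSO for the 9 tested members (points, ET-3 green and NT purple) with 95% intervals from limma, and dashed lines at a fold of 2. Chrng (-2.74 and -2.85), Lrp4 (-1.67 and -1.61) and Chrnd (-1.22 and -1.32) lie left of the lower line, Rapsn (-0.91 and -0.94) lies just inside it, and Agrn (0.21 and 0.35) lies right of 0.

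Compared directly, NT and ET-3 gave 0 called members in either direction by limma, against 0.0287% of all genes called lower with NT and 0.0503% called higher. Chrna1 alone passed the adjusted p, with a log2 fold change of -0.26 for NT against ET-3 (95% interval -0.39 to -0.13, limma adjusted p = 0.0466, against 2.05% of all genes lower and 0.647% higher by the adjusted p alone). It passed in 4 of 17 alternative settings and in none of the 6 fits without 1 library, where the limma adjusted p was between 0.162 and 0.460, and the limma adjusted p was 0.712 with the pairs averaged. For Chrng the interval of the difference was -0.24 to 0.03, for Chrnd -0.21 to 0.0090, for Lrp4 -0.04 to 0.16 and for Rapsn -0.18 to 0.13.

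Per kilobase of principal transcript, the order of all 10 genes also differed. With DMSO, Chrng was highest (548 and 589), followed by Chrnd (492 and 521) and Chrna1 (475 and 526), whose ranges overlapped, then Chrnb1 (409 and 419), Rapsn (375 and 398) and Dok7 (357 and 366). Lrp4 (304 and 314) and Musk (303 and 309) could not be ordered beyond their spread, and Agrn (62.4 and 57.5) was far below. In the treated libraries Chrna1 (between 374 and 472) and Dok7 (between 325 and 375) were highest, followed by Chrnb1 (277 to 313), Musk (229 to 243), and then Chrnd (201 to 221) and Rapsn (194 to 217), whose ranges overlapped. Lrp4 (95.8 to 104) and Chrng (76.3 to 86.7) came next, with Chrng overlapping Agrn (68.8 to 78.2). By this length, Chrng thus went from the top of the order to near the level of Agrn.

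For each member, the genes whose 6 centred log2 values lay nearest by root mean square difference were sought among the other 13920 tested genes. Nearest to Chrng was Alpk2, a kinase gene (0.06), followed by Rftn2 (0.09) and Capn6 (0.10). Nearest to Chrnd were Lima1, which encodes an actin-binding protein, Rhoq, a small GTPase gene, and Fhl1, a LIM-domain gene of muscle (0.03 to 0.04), and near to Lrp4 were Tmem9 and Lrch1 (0.03 each). Chrna1 was nearest to Itgb1, the integrin beta 1 gene (0.01), and Agrn to Rbm33 (0.01), with Nrp1, a neuropilin gene, at the third place (0.02). These distances describe 6 libraries in 3 groups and were not tested.

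Other nicotinic subunits, which form neuronal receptors, had low values or no row. Of the 11 listed, 5 had a row and 2 were tested. Chrna7, the alpha 7 subunit gene, rose from 7 and 6 under DMSO to 63 and 69 under ET-3 and 79 and 79 under NT (log2 fold change 3.16 ± 0.21 SE, limma adjusted p = 7.82e-07, and 3.42 ± 0.21 SE, limma adjusted p = 4.96e-07). Its treated values were above both DMSO values in every library and opposite in direction to Chrng. Chrnb2 had values of 8 and 7, 7 and 12, and 11 and 23 in the same order and did not pass the test.

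Synaptic matrix and scaffold genes encode proteins that surround and anchor the receptor clusters. Of 18 tested, 9 were called lower and 1 higher with ET-3, beside 14.9% and 6.62% of all genes, and 9 lower and 1 higher with NT, beside 13.2% and 7.30%, with median log2 fold changes of -1.13 and -1.06. Sntb1, encoding beta-1-syntrophin of the dystrophin complex, went from 1324 and 1323 under DMSO to 42 and 51 under ET-3 and 45 and 50 under NT. Nid2, a basement membrane nidogen, went from 1385 and 1409 to 55 and 57 and to 54 and 53. Both were among the steepest falls of the list, with log2 fold changes between -4.81 and -4.62. Ache, the acetylcholinesterase that ends the signal, went from 69 and 53 to between 2 and 6, and Lama4, a laminin chain of the synaptic basal lamina, from 23 and 31 to between 0 and 2. The gene called higher was Col13a1, a synaptic transmembrane collagen named after its values were seen, with 89 and 97 under DMSO, 329 and 331 under ET-3 and 285 and 298 under NT. Plec, the plectin gene, had the highest values among those not called, 6464 and 7076 under DMSO and between 5741 and 6474 with a ligand.

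Among genes of MuSK and neuregulin signaling, 8 of 24 were called lower and 0 higher with ET-3 and 8 lower and 1 higher with NT, beside the same shares of all genes (14.9% and 6.62% with ET-3, 13.2% and 7.30% with NT), and the medians were -0.19 and -0.22. Erbb3, the neuregulin receptor that acts with ErbB2 in muscle, went from 1458 and 1519 under DMSO to 98 and 76 under ET-3 and 95 and 102 under NT (log2 fold change -4.09 and -3.90, both called). Sorbs2, which encodes an adaptor protein that binds actin-linked complexes, went from 833 and 737 to between 9 and 13. Camk2b, a calcium-dependent kinase gene, went from 72 and 73 to between 2 and 4. Cttn, the cortactin gene, was not called, with 1396 and 1485 under DMSO and between 1298 and 1606 with a ligand. The gene called higher with NT was Vangl2, a planar polarity gene named after its values were seen, with 126 and 144 under DMSO and 286 and 273 under NT, and its ET-3 values of 268 and 248 lay just short of the fold (log2 fold change 0.93). Summed values of the 4 Schwann cell markers with a row, a cell type that also uses ErbB3, were 127 and 141 under DMSO and between 46 and 80 with a ligand, and Sox10 had no row. Their part in the Erbb3 values was not tested.

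Of 18 regulators of synaptic gene transcription tested, 3 were called lower and 1 higher in each comparison, with medians of 0.0030 and -0.17. These counts are close to the shares over all genes, 14.9% lower and 6.62% higher with ET-3 and 13.2% and 7.30% with NT. Myog, the gene for myogenin, which binds E-boxes of receptor subunit promoters, went from 1157 and 1335 under DMSO to 31 and 38 under ET-3 and 31 and 28 under NT (log2 fold change -5.14 and -5.35, limma adjusted p = 2.53e-09 and 2.89e-09). Myf6, another factor of that family, went from 143 and 121 to between 8 and 15, and Hdac9, a histone deacetylase known to repress synaptic genes, from 90 and 85 to between 0 and 4. Myod1 was not called, with 1324 and 1444 under DMSO, 1539 and 1449 under ET-3 and 1192 and 1100 under NT. The one called higher was Etv4, an ETS factor gene, with 190 and 187 under DMSO and between 506 and 534 with a ligand (limma adjusted p = 1.67e-08 and 1.52e-08). None of the 7 receptor assembly and glycosylation genes was called by limma in either comparison. By the adjusted p alone, 1 was lower and 2 were higher in each. The shares of all genes by that rule were 33.2% lower and 30.6% higher with ET-3, and 32.5% and 29.7% with NT. Gfpt1, the hexosamine pathway enzyme that is mutated in a congenital myasthenia, had 778 and 731 under DMSO and between 514 and 561 with a ligand.

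Genes of myotubes, the fused muscle cells, were lower as well. All 12 genes were tested, and 11 were called lower with either ligand, beside 14.9% of all genes with ET-3 and 13.2% with NT. Myh3, the embryonic myosin heavy chain gene, went from 5115 and 5798 under DMSO to between 14 and 32, Myh8, the perinatal one, from 2268 and 2450 to between 0 and 3, Ckm, the muscle creatine kinase gene, from 545 and 520 to 0 or 1, and Tnnc2, a fast troponin gene, from 489 and 535 to between 0 and 2. The exception was Des, the desmin gene, with 1950 and 2280 under DMSO and between 1257 and 1688 with a ligand. The list median was -6.11 under ET-3 and -5.51 under NT, and the ET-3 median was -5.88 when the 3 genes at 0 in both ET-3 libraries were set to a floor of 3 per library. The summed value of the list was 35524 and 39304 under DMSO and between 3168 and 3805 with a ligand. Ttn alone gave 18751 and 20645 of it under DMSO and between 1406 and 1912 with a ligand. The part of the myotube genes in the lower receptor gene values was not tested.

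**Figure D4:**
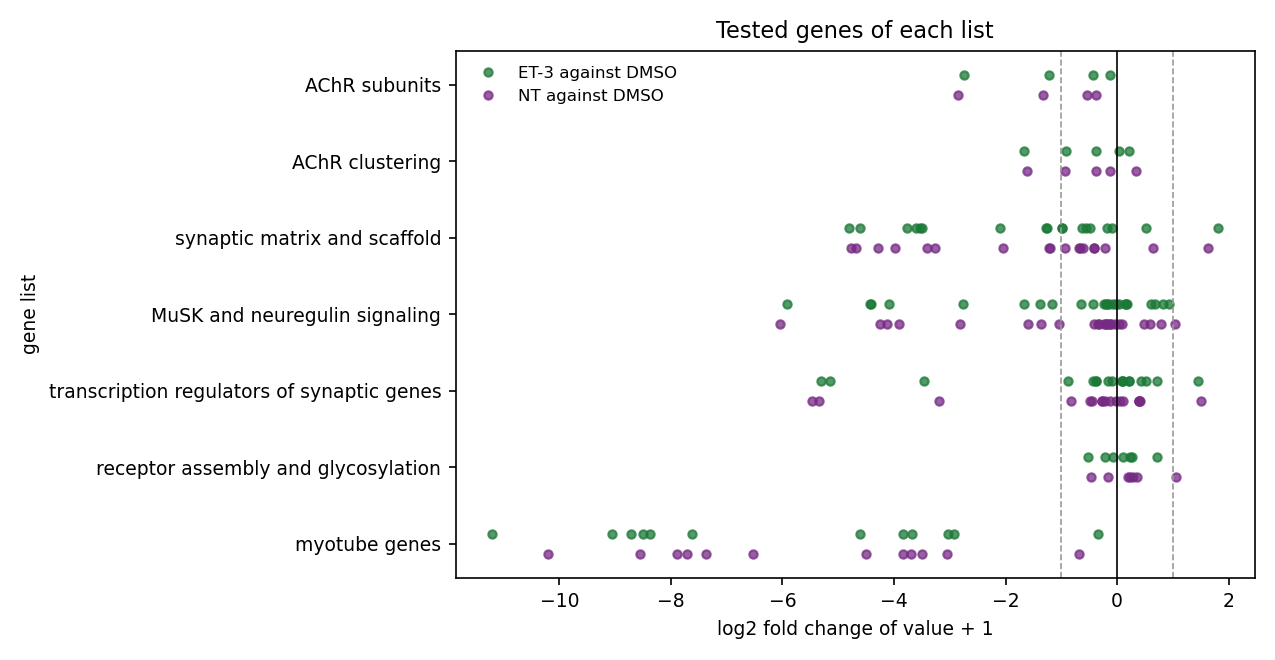
Log2 fold change of value + 1 against DMSO for every tested gene of 7 lists, 1 point per gene, ET-3 green above NT purple, with dashed lines at a fold of 2. The 12 myotube genes lie between -11.20 and -0.34, the receptor and clustering genes between -2.85 and 0.35, and the fitted values of the 3 myotube genes at 0 in both ET-3 libraries depend on the pseudocount.

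Markers of other cell types were summed in the same way. All 8 smooth muscle and pericyte genes had a row, and muscle cells also express some of them. Their sums were 4423 and 5032 under DMSO and between 1032 and 1209 with a ligand. Of the 6 tested, 5 were called lower with either ligand, beside 14.9% of all genes with ET-3 and 13.2% with NT. Abcc9 went from 851 and 835 under DMSO to between 0 and 4, and Pdgfrb from 227 and 278 to between 3 and 13. Rgs5 went from 117 and 150 to between 2 and 5, and Notch3 from 1397 and 1773 to between 284 and 409. Cspg4 was not called (610 and 612, then between 433 and 509). Myh11, the smooth muscle myosin gene, lay between 0 and 4 and was not tested. Fibroadipogenic markers had sums of 1624 and 1788 under DMSO and between 992 and 1151 with a ligand (5 of 8 with a row). Col3a1 (1420 and 1577 under DMSO, between 922 and 1061 with a ligand) and Col1a1 (148 and 146, then between 2 and 8) made up most of that gap, while Ly6a was higher by the limma adjusted p with either ligand (27 and 18 under DMSO, between 37 and 52 with a ligand) and Pdgfra with NT (20 and 30 under DMSO, 44 and 37 under NT). Sums were between 34 and 62 in all libraries for macrophage markers (4 of 8 with a row). Of the 8 motor neuron markers 2 had a row, Isl1 and Prph, with sums of 219 and 196 under DMSO and between 12 and 21 with a ligand, and Chat, the enzyme of acetylcholine synthesis, had no row. The MuSC markers had sums between 6691 and 8185 across all 6 libraries, a range that joins members of opposite direction. By the limma adjusted p alone, 3 of the 7 tested were higher with either ligand (Pax7, Vcam1 and Sdc4). Lower by that rule were 2 under ET-3 (Cdh15 and Itga7) and 4 under NT (these and Myf5 and Myod1). Among all tested genes, 30.6% passed as higher under ET-3 and 29.7% under NT, while 33.2% and 32.5% passed as lower. The part of these markers in the members' values was not tested.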

How the data were processed

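RNA-seq of FACS-purified mouse MuSCs cultured for 5 days was examined in 6 libraries, grouped by their labels. Reads were trimmed (Trimmomatic 0.38 in the submitters' processing notes, another program in the paper), aligned to mm10 (GRCm38) with STAR 2.7.7a and counted on exons per gene with featureCounts 1.6.5, versions as in those notes. Reads on several genes or regions were left out. The library kit also differs between labels and paper. The deposited values were taken to be a scaled read signal: the authors' counts times 1 factor per library, rounded. This was inferred from the values, and the factors fitted to them were between 0.781 and 1.19. The scaling is not given in the sources used here, so edgeR and DESeq2 were not run here, although the notes name DESeq2 1.30.0.

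Values were analysed on the log2(value + 1) scale with limma 3.58.1 in R 4.3.3 (eBayes with trend, all 6 libraries, no block), over 13921 genes with a mean of at least 5, with Benjamini-Hochberg adjustment over these genes. A gene was called at a fold of at least 2 with adjusted p no higher than 0.05. The fit was also run on simulated data, with few genes changed in a single group and the same noise setting for all libraries. That setting is simpler than these data, so the run does not check the p-values printed here. Exonic and principal transcript lengths came from GENCODE for GRCm38 and promoters from RefSeq GRCm38.p6. Python 3.11.15 prepared tables and plots. The members and lists were chosen with earlier results of these data known. From each list up to 4 genes called in both comparisons, those with the largest mean change, and the uncalled gene with the highest mean value were named, together with the 3 nearest genes of each member (not all printed). Some genes that this rule names are not reported here. The design text speaks of triplicates, and 2 libraries per group were analysed here. The alternatives covered scaling, pseudocount, filter, 2 groups alone, a replicate block, voom weights, averaged treated pairs, a limit of 1 read per base, and each library left out.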

Additional observations from a re-analysis of the deposited data

Results flagged for a closer look

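Chrna1 was lower with NT than with ET-3 when the ligands were compared directly. Its log2 fold change for NT against ET-3 was -0.26 (limma adjusted p = 0.0466), with values of 2070 and 1957 under ET-3 and 1722 and 1641 under NT, and both NT libraries were below both ET-3 libraries. This is a test of the difference between the ligands, and the adjusted p lay between 0.00408 and 0.712 over its 17 alternatives and was above 0.05 whichever library was left out. Groups of 2 libraries were too small to look for single libraries that stood apart.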

How the results depend on the processing

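The counts of 3 members called lower with ET-3 and 3 under NT, and of 0 higher, stayed the same when libraries were scaled to their totals or upper quartiles, with pseudocounts of 0.5 and 5, without the filter, with 2 groups alone, with voom weights, with treated pairs averaged, and in every fit without 1 library, where they ranged from 3 to 3 and from 0 to 0. With a limit of 1 read per base, added after the data were seen, 4 were called lower with either ligand, the fourth being Rapsn. By the adjusted p alone, 6 were lower and 1 higher with ET-3, 8 lower and 1 higher with NT, and 1 lower and 0 higher for NT against ET-3. With a replicate block the counts were 3 and 3. The replicate numbers pair nothing in the labels, and same-numbered libraries did not deviate together (correlations of -0.0080, -0.07 and -0.02 over 13921 genes).

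Scaling to library totals moved the median of all genes to 0.08 under ET-3 and 0.10 under NT. Over 17 alternatives, Chrna1 under ET-3 ranged from -0.20 to -0.03 and passed the adjusted p in 3, Dok7 under NT from -0.15 to -0.02 and passed in 11, and Agrn passed in 13 under ET-3 and in 16 under NT. Depth limits Chrne, at 0 to 4 in every library.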
